A study of Oryza sativa with 3 samples.

Results

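The tau glutathione transferase cluster on chromosome 10 of rice was followed as 10 loci of 29689 on the array, namely Os10g0527400, Os10g0527800, Os10g0528100, Os10g0528200, Os10g0528300, Os10g0528400, Os10g0529300, Os10g0529400, Os10g0529500 and Os10g0530900. They were chosen by locus number, as members of a tandem group of tau-class enzymes, with earlier results of these data known. Every probe whose name starts with one of these numbers was taken, which gave 24 of 41889 gene probes. The array files do not pair locus numbers with gene names, so the class rests on the list itself and no name or role is given to a single locus. RNA came from roots of 6-day-old seedlings of cultivar TN-67, exposed either to vanadium at 1 mM or to water. Both groups shared age, cultivar and tissue, and the labels used here give neither an exposure time nor the number of seedlings per sample. On each of 3 two-colour arrays, RNA of 1 vanadium sample in Cy5 (red) was hybridised with RNA of 1 water sample in Cy3 (green). Per the labels these are 3 biological replicates. No array had the dyes reversed, so a dye effect specific to a probe cannot be told apart from the treatment.

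Glutathione transferases are enzymes that couple the thiol tripeptide glutathione to reactive, electrophilic compounds, after which the conjugates can be moved into the vacuole. The tau class is found in plants, where it is large, is often arranged in tandem arrays that arose by gene duplication, and is known for detoxification of herbicides and for induction by chemical and oxidative stress. Vanadium is a transition metal that can take part in redox reactions. Because copies in a tandem array can be similar in sequence, a probe for one may also bind the transcript of another.

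The number of gene probes well above background ranged from 31280 to 32246 for vanadium and from 29261 to 31920 for water. A locus was tested if at least 1 of its probes was well above background in one channel on all 3 arrays. This left 21432 loci, each represented by its brightest such probe. Under vanadium 6339 loci were higher (29.6% of those tested) and 4528 were lower (21.1%) by limma's moderated test, at an adjusted p under 0.05. With the scanner software's own ratio 41.7% of called loci were higher, against 58.3% here. All 24 probes of the cluster were well above background in both channels on all 3 arrays.

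The cluster was mostly induced. Of its 10 loci, 9 were higher in roots under vanadium than in water and 1 was lower, where 29.6% and 21.1% of all tested loci were called in these directions. At 7 of the 10 the rise was at least 2-fold, which was found at 8.88% of all tested loci. The loci were chosen with earlier results of these data known, so these shares are descriptions and no test of the cluster. The median log2 ratio of vanadium over water was 1.55 over the cluster and 0.02 over all tested loci. On single arrays the median of the cluster was 1.36, 1.94 and 1.65 for replicates 1, 2 and 3, where that of replicate 1 is over 9 loci because the spot of Os10g0527400 was left out there. The size of the response ranged from a 34.6-fold rise at Os10g0527400 to a 1.89-fold fall at Os10g0529300. In bulk root RNA, a change in the number of cells that hold a transcript and a change in its amount per cell cannot be told apart.

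**Figure D1:**
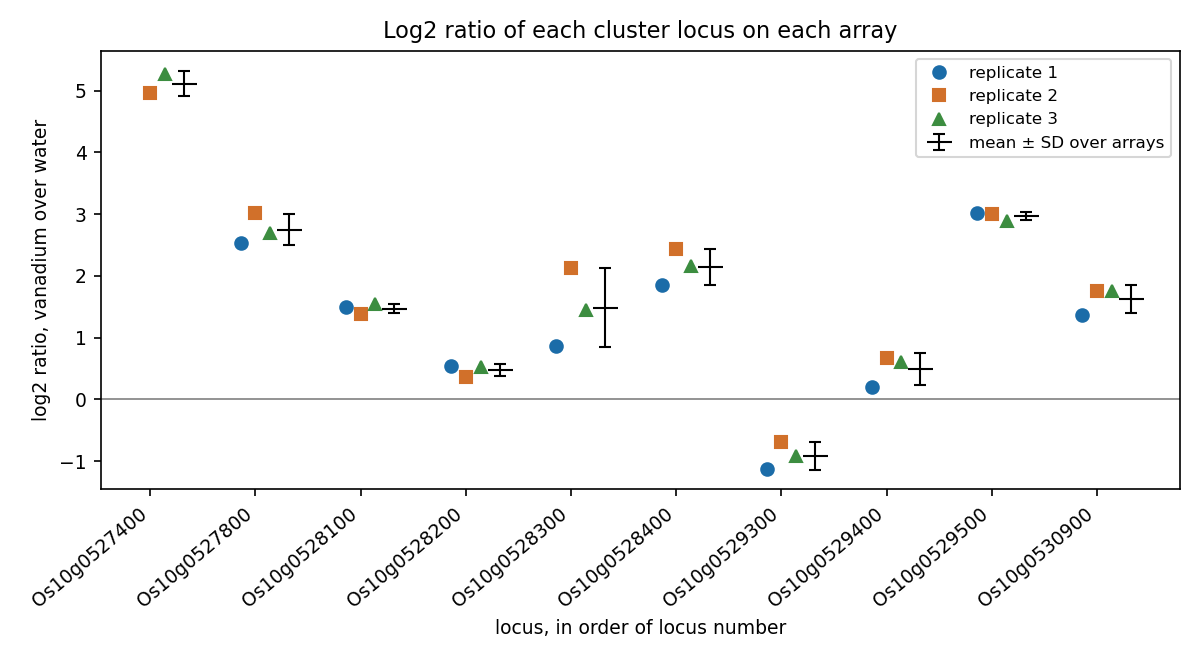
Log2 ratio of vanadium over water (vertical axis) at each of the 10 cluster loci, in order of locus number, on each of 3 arrays, with the mean and SD over arrays in black. Os10g0527400 stands near 5 on the 2 arrays used for it, and Os10g0529300 is below 0 on all 3.

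Os10g0527400, the first locus of the cluster by number, had the largest rise. Its 1 probe gave normalized intensities of 30508, 22154 and 26996 under vanadium, against 1098, 709 and 704 in water, on replicates 1, 2 and 3. The vanadium values lay far above the water values on every array. The scanner software marked the red spot of replicate 1 as non-uniform, so the fit used replicates 2 and 3, with log2 ratios of 4.97 and 5.26. The mean was 5.11 ± 0.12 (SE, n = 2 arrays; limma, adjusted p = 6.21e-06), which placed the locus at rank 16 among 21432. With the marked spot kept, replicate 1 had a log2 ratio of 4.80 and the mean was 5.01.

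Os10g0529500 and Os10g0527800 came next. At Os10g0529500 the intensities were 3268, 2945 and 4085 under vanadium, against 405, 368 and 551 in water. Its log2 ratios of 3.01, 3.00 and 2.89 were among the most even of the cluster, with a mean of 2.97 ± 0.08 (SE, n = 3 arrays; limma, adjusted p = 2.67e-06), a 7.82-fold rise. At Os10g0527800 the brighter of the probes gave 6093, 5656 and 5435 under vanadium, against 1059, 695 and 840 in water. The groups did not overlap at either locus. The mean log2 ratio of Os10g0527800 was 2.75 ± 0.11 (SE, n = 3 arrays; limma, adjusted p = 1.04e-05), a 6.72-fold rise.

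A middle group rose between 2.77-fold and 4.43-fold. Os10g0528400 had intensities of 41032, 50285 and 51411 under vanadium, against 11393, 9327 and 11456 in water. Its log2 ratio was 2.15 ± 0.12 (SE, n = 3 arrays; limma, adjusted p = 3.53e-05). Os10g0530900, which lies farthest from the others by number, gave 27764, 21642 and 16780 under vanadium, against 10808, 6412 and 4949 in water. Both channels of this probe were highest on replicate 1, while the log2 ratios were 1.36, 1.75 and 1.76, with a mean of 1.63 ± 0.11 (SE, n = 3 arrays; limma, adjusted p = 6.61e-05). The other probes of this locus gave 1.53 to 1.78 on replicate 1, and not all of them were brightest there.

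Os10g0528300 was the most uneven locus of the cluster. Its intensities were 7182, 14834 and 14199 under vanadium, against 3950, 3379 and 5195 in water. The groups did not overlap, and the vanadium value of replicate 1 was the lowest of its group by a wide margin. The log2 ratios were 0.86, 2.13 and 1.45, with an SD of 0.64 over arrays, and the mean was 1.48 ± 0.22 (SE, n = 3 arrays; limma, adjusted p = 0.00216). The SE of the fit is smaller here than these 3 arrays alone would give. Os10g0528100 had nearly the same mean with far less spread. It gave 1169, 709 and 607 under vanadium, against 417, 272 and 209 in water, and log2 ratios of 1.49, 1.38 and 1.54. Its mean was 1.47 ± 0.08 (SE, n = 3 arrays; limma, adjusted p = 3.01e-05) and its SD was 0.08.

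Os10g0528200 and Os10g0529400 passed the test with small rises. At Os10g0528200 the intensities were 803, 642 and 543 under vanadium, against 555, 497 and 378 in water, so the groups overlapped although vanadium was higher on each array. Its log2 ratio was 0.48 ± 0.08 (SE, n = 3 arrays; limma, adjusted p = 0.00377), a 1.39-fold rise. At Os10g0529400 the intensities were 8409, 8795 and 7850 under vanadium, against 7324, 5522 and 5190 in water, and these did not overlap. Its log2 ratios of 0.20, 0.67 and 0.60 gave a mean of 0.49 ± 0.11 (SE, n = 3 arrays; limma, adjusted p = 0.0118). Both calls were lost when arrays were centred on their median in place of loess, with a limma adjusted p of 0.0661 at Os10g0528200 and 0.0851 at Os10g0529400. They were also lost when the channels were fitted without the pairing by array (limma, adjusted p = 0.138 at Os10g0528200 and 0.0658 at Os10g0529400). The call of Os10g0529400 was also lost without replicate 2, where it stood at 0.40 (limma, adjusted p = 0.0606).

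Os10g0529300 was the 1 locus that fell. Its intensities were 10217, 11154 and 9956 under vanadium, against 22467, 17997 and 18800 in water. Every vanadium value was below every water value. The log2 ratios were -1.14, -0.69 and -0.92, with a mean of -0.91 ± 0.10 (SE, n = 3 arrays; limma, adjusted p = 0.000734), and 97.9% of tested loci had a higher mean. Among cluster loci it lies by number between Os10g0528400, which rose 4.43-fold, and Os10g0529400. The log2 ratio of Os10g0529300 minus that of Os10g0528400 was -2.99, -3.12 and -3.08 on replicates 1, 2 and 3. That of Os10g0529400 minus that of Os10g0529300 was 1.34, 1.36 and 1.51. The SD of these differences over arrays was 0.07 and 0.10, below the SD of 0.22 of the ratio of Os10g0529300 itself.

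**Figure D2:**
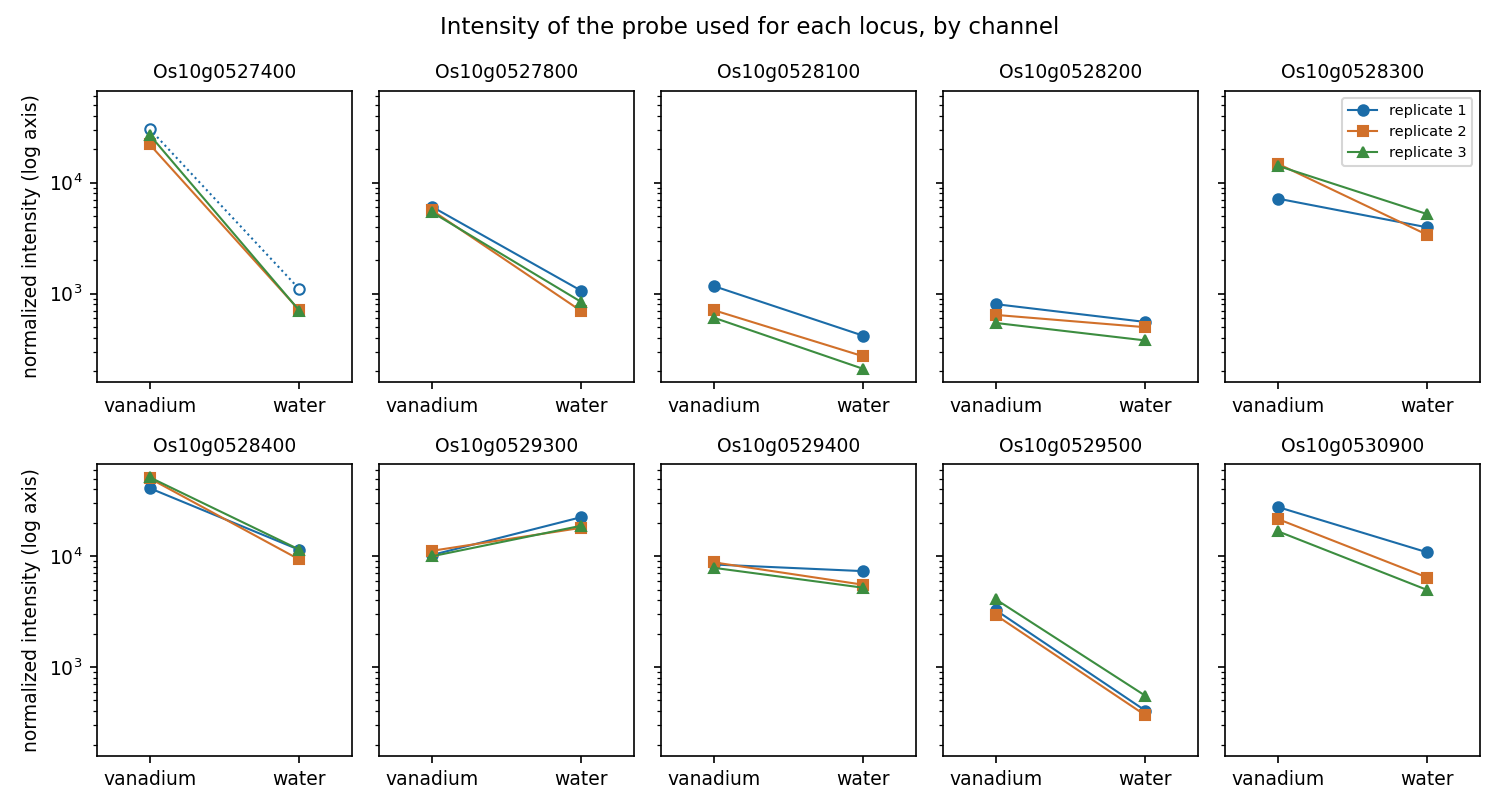
Normalized intensity (log axis) of the probe used for each cluster locus in the vanadium channel (left) and the water channel (right), with a line for each of 3 arrays. The open symbols and dotted line at Os10g0527400 are replicate 1, whose red spot was marked as non-uniform, and Os10g0529300 is the locus whose lines run upward to water.

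In the order of their log2 ratios the loci were Os10g0527400, Os10g0529500, Os10g0527800, Os10g0528400, Os10g0530900, Os10g0528300, Os10g0528100, Os10g0529400, Os10g0528200 and Os10g0529300. Several neighbours in this order were closer than their spread. The gap between Os10g0529500 and Os10g0527800 was 0.22, with an SD of the difference over arrays of 0.26. The gap between Os10g0530900 and Os10g0528300 was 0.14 (SD 0.46), that between Os10g0528300 and Os10g0528100 was 0.01 (SD 0.69), and that between Os10g0529400 and Os10g0528200 was 0.01 (SD 0.32). The remaining gaps were larger than their SD: 2.15 (SD 0.29, n = 2 arrays) below Os10g0527400, 0.60 (SD 0.07) below Os10g0527800, 0.52 (SD 0.14) below Os10g0528400, 0.98 (SD 0.29) below Os10g0528100 and 1.39 (SD 0.31) below Os10g0528200. With 3 arrays at most, these gaps are descriptions and were not tested.

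As processed here, probes of the same locus gave like mean ratios over arrays at 4 of the 5 loci that had several. In a fit over all probes, 18 of the 24 cluster probes were higher and 6 were lower, where 28.9% and 21.2% of all tested probes were called in these directions. The 6 lower probes were the 6 probes of Os10g0529300, and each of the 5 loci with several probes had all its probes called in 1 direction. Mean log2 ratios of the probes differed by at most 0.02 at Os10g0527800 (2 probes), 0.03 at Os10g0529300 (6 probes), 0.07 at Os10g0528400 (4 probes) and 0.14 at Os10g0530900 (4 probes). For comparison, the median of this range was 0.14 over 5985 loci with several probes kept, and its upper quartile was 0.29.

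At Os10g0528300, the other one, the range over its 3 probes was 0.56. Its probes for the cDNAs AK103453 and AF309378 gave 1.48 and 1.49, and the probe for AY271619 gave 0.92 ± 0.13 (SE, n = 3 arrays; limma, adjusted p = 0.00174). The intensities of the last were 591, 620 and 455 under vanadium, against 397, 261 and 237 in water. It followed the others across arrays, with 0.57, 1.25 and 0.94 against 0.86, 2.13 and 1.45 for AK103453. An offset of 50 added in the background correction pulls ratios of dim spots toward 0. Without that offset the AY271619 probe stood at 1.04 and with the scanner software's ratio at 1.09, while AK103453 stood at 1.49 and 1.46. These probes still differed on both scales, and the cause was not tested. At Os10g0527800 the probes for AF402799 and AK063773 stood at 2.81 and 3.02 without the offset. With the scanner software's ratio they stood at 2.78 and 3.20, so their close match depended on the processing.

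The remaining 5 loci had 1 probe each, among them the 2 with the largest rises, Os10g0527400 and Os10g0529500, so nothing on the array checks them. The files hold no probe sequences, and binding of a probe to transcripts of other copies was not tested. Probes of 1 locus may overlap in sequence, so they are not independent measurements.

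**Figure D3:**
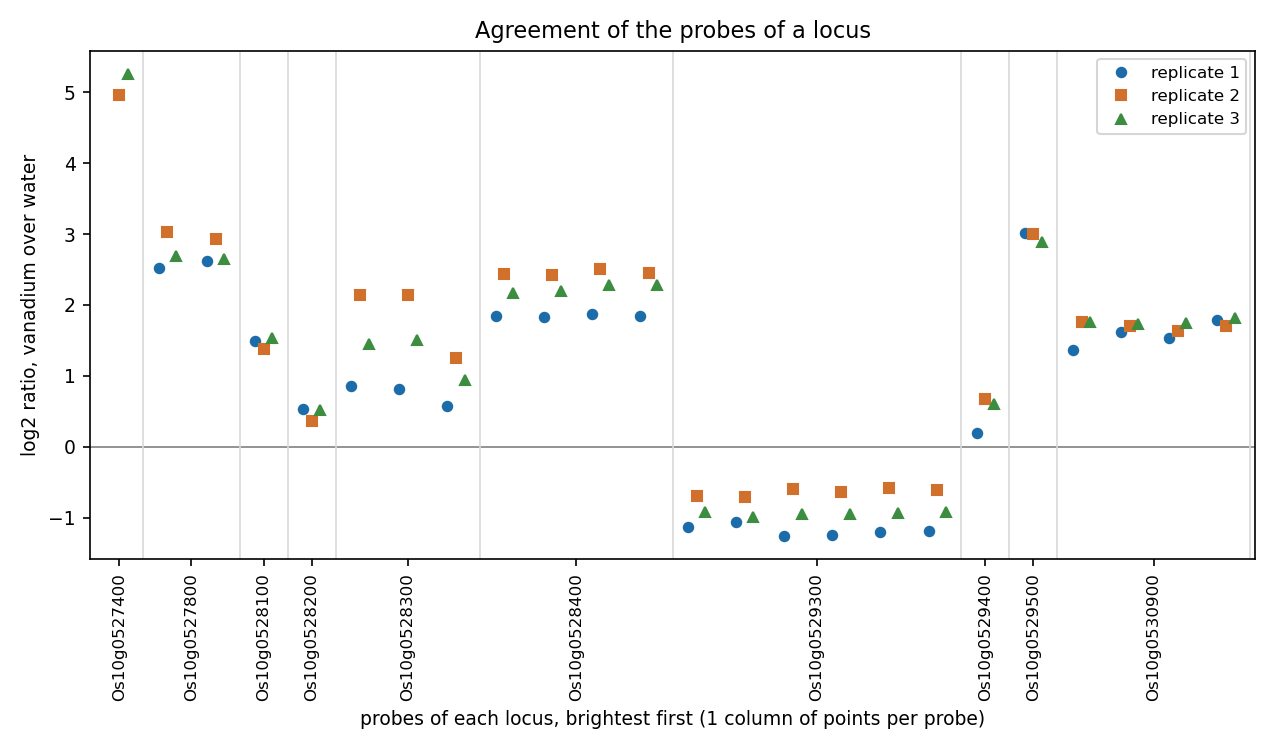
Log2 ratio of vanadium over water for each of the 24 probes of the cluster, grouped by locus, with 1 point for each array. On average over arrays, probes of a locus stand at like heights, except the last probe of Os10g0528300. Its ratios are lower than those of the other probes of that locus.

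The window of locus numbers around the cluster, Os10g0525000 to Os10g0533000, holds 34 other loci on the array, whose identity the files do not give. Of these 25 were tested, with 12 higher, 6 lower and 7 past neither threshold (limma, against 29.6% higher and 21.1% lower over all loci). At 2 of the 12 no array had the water signal of the probe used well above background. The median log2 ratio of the 25 was 0.33, against 1.55 in the cluster. Across 14 processing alternatives the count ranged from 8 to 14 for higher and from 3 to 6 for lower loci, and the median from 0.18 to 0.38. The highest was Os10g0525600, with log2 ratios of 4.39, 3.91 and 4.74 and a mean of 4.35 ± 0.15 (SE, n = 3 arrays). The lowest was Os10g0532600 at -2.00 ± 0.14, below the 1 cluster locus that fell. Large rises in the window were therefore not confined to the listed cluster loci. Whether other loci of the window are also glutathione transferases was not checked. Whether the cluster differs from its neighbours was not tested.

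**Figure D4:**
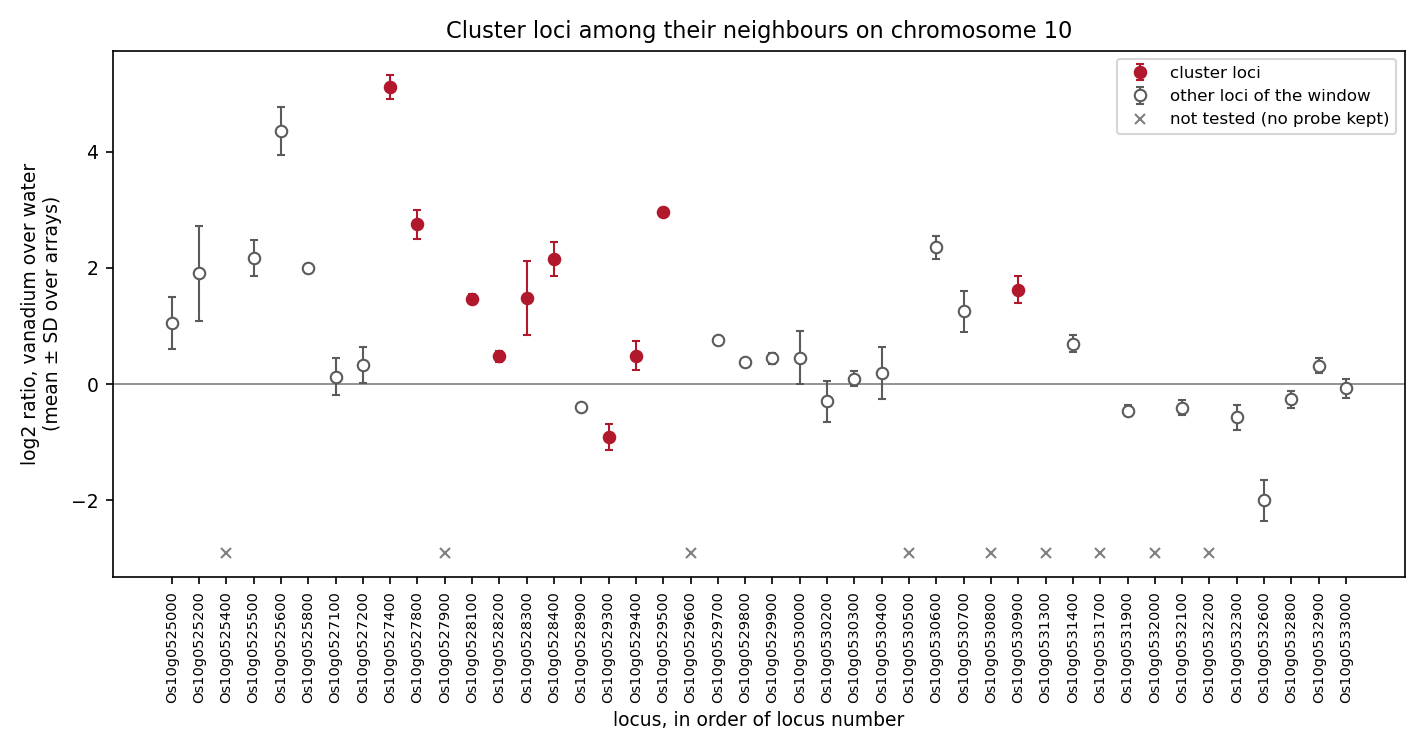
Log2 ratio of vanadium over water (mean and SD over arrays) of all loci with numbers from Os10g0525000 to Os10g0533000, in order of number, with cluster loci filled and the others open. Crosses mark loci with no probe kept. Cluster loci lie between -0.91 and 5.11, other loci between -2.00 and 4.35.

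Glutathione transferases elsewhere in the genome, listed by locus number from general knowledge and not annotated in the files, were called in both directions. Of 21 listed loci 19 were on the array and 18 were tested. By limma 9 of these rose, 5 fell and 4 passed in neither direction, where 29.6% of all tested loci rose and 21.1% fell. Their median log2 ratio was 0.27. The alternatives called 6 to 9 of them higher and 1 to 5 lower. At least 2-fold rises were found at 4 of them, against 8.88% of all tested loci, and at 2 of these 4, Os01g0692000 and Os01g0692100, no array had water signal well above background. The largest was at Os09g0367700, with uneven log2 ratios, from 0.88 on replicate 1 to 2.57 on replicate 2, and a mean of 1.65 ± 0.29 (SE, n = 3 arrays; limma, adjusted p = 0.00412). Os01g0949700 followed at 1.54 ± 0.09. The vanadium signal of Os01g0692000 was at least 2.61-fold higher than in water, taking for water the lowest signal that passes as above background, and that of Os01g0692100 at least 2.03-fold higher.

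Glutathione supply was covered by 8 loci listed in the same way for its synthesis and reduction, of which 7 were tested. These had 5 higher loci, 1 lower and 1 that did not pass, beside 29.6% higher and 21.1% lower over all tested loci. Their median log2 ratio was 0.44. With the scanner software's ratio, the authors' table and median centring 3 of the 7 were higher. The largest changes were a rise at Os10g0415300, by 1.37 ± 0.08 (SE, n = 3 arrays), and a fall at Os12g0263000, to -1.33 ± 0.10 on the 2 arrays where its spot was not marked. Os02g0813500 was higher by 0.67 ± 0.12 (SE, n = 3 arrays).

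Marker loci, also listed from general knowledge, were used to check the tissue. All 4 root markers were well above background in both channels on every array, with 1 higher and 3 lower under vanadium by limma (at most 1 higher and 2 to 3 lower under the alternatives). Os02g0662000 was higher, by 0.68 on the log2 scale, and Os02g0745100 (-2.06), Os03g0107300 (-1.02) and Os07g0257200 (-0.46) were lower. The summed intensity of the 4 ranged from 219749 to 249063 in vanadium and from 136320 to 204963 in water, and most of it came from Os02g0662000, so the sum moved opposite to the other 3. Whether these shifts reflect the tissue or a response of the marker genes to vanadium was not tested. Their part in the cluster's response was not tested either. Of 7 green shoot markers 4 were tested and 0 passed limma's threshold, also at an unadjusted p under 0.05. Over the alternatives at most 1 was called in each direction. Their summed intensity was 3376 to 5241 in vanadium and 2785 to 5938 in water. Most of it came from Os03g0592500, whose replicate 1 spot was left out of the fit but is in the sum. Os09g0346500 was uneven, with water intensities of 1784, 157 and 155 on replicates 1, 2 and 3. Its log2 ratios were -2.93, 0.29 and -0.13, and the cause was not tested. Of 5 seed storage markers 0 were well above background on all 3 arrays of a channel.

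Signs and most calls of the cluster did not depend on the processing. Over the alternatives 7 to 9 of the cluster loci were higher and 1 was lower. The scanner software's ratio shifted loci by -0.14 (log2, median over all of them). Measured from the median locus on that scale, Os10g0527400 stood at 5.36, Os10g0529500 at 3.32, Os10g0527800 at 2.90, Os10g0528400 at 2.32 and Os10g0529300 at -0.81. The array of replicate 1 was on its own slide, and the other 2 shared a slide. On the shared slide by itself the median of the cluster was 1.78, with 9 loci higher and 1 lower.

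**Figure D5:**
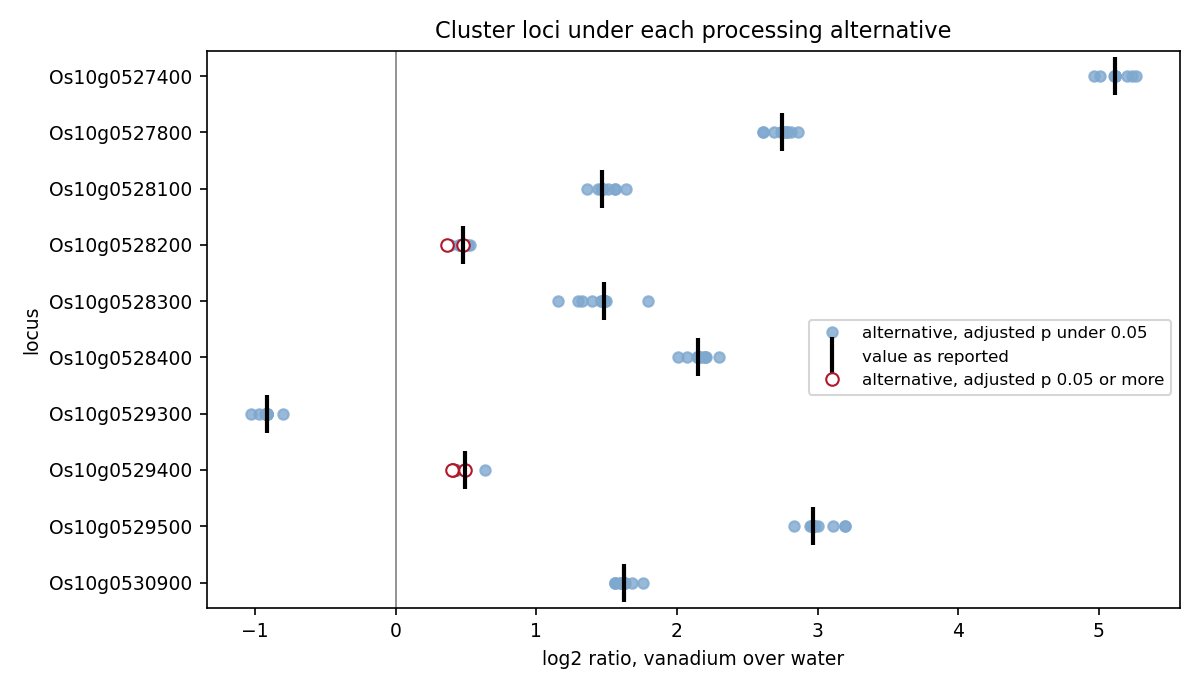
Log2 ratio of vanadium over water of each cluster locus as reported (black bars) and under each processing alternative (points, filled where limma's adjusted p was under 0.05). Open points occur at Os10g0528200 and Os10g0529400 only, and no point crosses 0.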

How the data were processed

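Red and green intensity of each spot and of its local background came from the deposited array files, made with Agilent Feature Extraction 10.7.1.1 per the file headers. From these that software computed processed intensities, with background subtracted and dyes normalized, and a log10 ratio (red to green), both in the deposited files. On the log2 scale this ratio differed from that of the processed intensities by at most 0.524 at any spot. The authors' deposited value table is on a log2 scale: 100% of its 41882 single-spot probes matched the log2 ratio of the processed channels, red to green, within 0.001. With medians of -0.05, -0.19 and -0.21 it had not been centred.

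Median signals were corrected by normexp (offset 50) and normalized by loess within arrays, with control spots at weight 0 (limma 3.58.1, R 4.3.3). Spots marked as outliers were left out (1090, 401 and 306 of 45151), and 0 were saturated. A probe was kept if well above background in 1 channel on all 3 arrays, whether or not a spot was marked. Spots of a probe were averaged and the brightest kept probe stood for a locus. Printed intensities were also A-quantile normalized between arrays. The mean log2 ratio was tested against 0 with lmFit and eBayes (2-sided, Benjamini-Hochberg over all loci or probes, threshold 0.05). Every SE is that of this fit, with the variance of each locus or probe drawn toward that of all. It is smaller than an ordinary SE at uneven loci and larger at very even ones. The pairing of vanadium with water comes from their hybridisation to 1 array. The number of arrays limits the precision. The steps were also run on simulated data with changes at a small share of loci, in random directions. That run did not cover changes as broad as those called here.

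The loci and the other lists were chosen with earlier results of these data known. Named loci were all 10 of the cluster, the highest and the lowest neighbour, and up to 3 largest changes of each glutathione list. Os01g0692100, next in size in its list, and some markers were named as well. No p-value was adjusted over a list alone. Alternatives were the offset, median centring, the scanner ratio, the authors' table, 2 other filters on dim probes, the mean of probes, unpaired channels, slide as a block and leaving out each replicate. Keeping marked spots and using only unmarked probes were chosen after seeing the data.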

Additional observations from a re-analysis of the deposited data

How the results depend on the processing

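Over the alternatives 251 recomputed values kept their direction and their side of the threshold, or for counts stayed within 1.5 times, while 5 ratios lost the call and 5 counts moved further. No log2 ratio of a cluster locus changed sign. Median centring gave 0.36 at Os10g0528200 and 0.41 at Os10g0529400, which no longer passed. With no replicate block, meaning channels fitted without the pairing by array, these loci stood at 0.48 and 0.49 and did not pass, and over all loci 3430 were higher and 1494 lower. The pairing changed no other call of a cluster locus. Leaving out each replicate gave 0.40 to 0.63 at Os10g0529400, and 2888 to 3651 lower loci over all, against 4528. The scanner ratio called 6907 loci lower, and 7005 were lower by the authors' values. Slide as a block gave no value for Os10g0527400, which lacks the array of 1 slide, and without replicate 2 or 3 its ratio rests on 1 array, assumed to vary like other loci. Using only probes with no marked spot removed Os10g0527400 and left 8 of 9 loci higher. The causes of these changes were not tested. Dim probes, such as that of Os10g0528200 (mean log2 intensity 9.11), limit what small ratios show. The probe of Os10g0529400, whose call was also lost, was brighter (12.78).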

Other observations

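The array that gave the lowest ratio was often shared within the cluster. At 5 of the 9 loci measured on all 3 arrays, replicate 1 had the lowest log2 ratio and replicate 2 the highest, and Os10g0529300, which fell, was among them. The same order was found at 22.4% of 20815 loci measured on all arrays, and at 13.6% of the 1841 of these that rose at least 2-fold. This comparison was chosen after the values were seen. Replicate 1 was the array of its own slide, and the part of the slide in this order was not tested.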
